A study of Homo sapiens with 2 samples.

Results

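The guide strands of the miR-99 and miR-125 families were examined in vesicles from FaDu, an established human line grown from a squamous carcinoma of the hypopharynx. The 5 miRNAs were chosen by name, as the array's design lists them: hsa-miR-99a-5p, hsa-miR-99b-5p, hsa-miR-100-5p, hsa-miR-125a-5p and hsa-miR-125b-5p. They are 5 of the 2549 human miRNAs on the array, and each was printed in 20 spots. The rule uses no measured value.

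Exosomes are small vesicles that cells release into the medium, and their RNA was hybridized to one-colour Agilent miRNA arrays. One group came from FaDu cells that received a control plasmid lentivirus (oe-NC), and the other from FaDu cells that received a lentivirus with a plasmid for the long noncoding RNA HOTTIP (oe-HOTTIP). The methods differ from these labels and describe plasmids delivered by lipofection into FaDu cells. Both groups share the cell line, the TRIzol extraction and the Cy3 label. A precipitation reagent is described for macrophage exosomes, and how those of FaDu cells were isolated is not given in the sources used here.

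Each group had 1 array, so no difference has a replicate check, no test was run, and precision is limited by having so few arrays. Errors below are SDs over the spots of one array and cover technical error only. For a miRNA they are pooled within probes, so they leave out the difference between its probes. The labels contradict themselves, because the description of each array names the group that its title and treatment do not. The columns of the normalized table that the authors deposited followed the scanner values of the opposite arrays, with a Spearman rho of 1.00 over 388 and 315 miRNAs, against 0.77 and 0.76 for the arrays of the same name. HOTTIP is no target of a miRNA array and could not settle this. The titles were followed, so "the oe-NC array" and "the oe-HOTTIP array" mean the arrays with these titles, and every direction below turns round if the titles are wrong. These directions oppose those of the authors' table as its columns are named for the detected members, miR-125a-3p, let-7a-5p and let-7e-5p. For let-7c-5p the sign is the same, 0.10 here and 0.22 in that table. The directions by the titles also oppose the direction the study gives for its lowered miRNAs where it followed up miR-19b-3p and miR-19a-3p. By the titles, the scaled log2 difference (oe-HOTTIP minus oe-NC) was 0.61 for miR-19a-3p and 0.35 for miR-19b-3p.

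A mature miRNA is cut from a hairpin, and its guide strand directs the silencing complex to messenger RNAs mainly through the seed, bases 2 to 8 from its 5′ end. The miR-99 family, to which miR-100 belongs, and miR-125, a relative of the worm miRNA lin-4, are encoded next to let-7 genes in a few clusters that are old in animal evolution. The strands of a cluster can be cut from a shared primary transcript, while the protein LIN28 blocks the maturation of let-7 but not that of its neighbours. The miR-99 family is known for targeting the growth kinase MTOR.

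The mature sequences are shown because they set which strands share targets, and how little sequence separates strands that differed in detection. They are from RefSeq (GRCh38.p14), 5′ to 3′, with the seed in capitals, and all 5 names were found there.
miR-99a-5p: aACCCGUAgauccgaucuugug
miR-100-5p: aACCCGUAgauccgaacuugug
miR-99b-5p: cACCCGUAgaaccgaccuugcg
miR-125a-5p: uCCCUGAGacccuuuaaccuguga
miR-125b-5p: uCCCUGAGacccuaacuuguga

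The 5 strands fall into 2 seed groups. miR-99a-5p, miR-99b-5p and miR-100-5p share the seed ACCCGUA, and miR-125a-5p and miR-125b-5p share CCCUGAG. Counted from the 5′ end, miR-100-5p differs from miR-99a-5p by the single substitution U16A. miR-99b-5p differs from miR-99a-5p by A1C, U11A, U16C and U21C, all outside the seed. miR-125a-5p has 24 bases and miR-125b-5p has 22, and they share their first 13.

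The genes of these strands lie in 3 clusters, each with 1 miR-99 family, 1 let-7 and 1 miR-125 hairpin. The cluster on chromosome 11 spans 52.6 kb within the noncoding gene MIR100HG, on the minus strand, with miR-100-5p at chr11:122152275-122152296 and one copy of miR-125b-5p at chr11:122099809-122099830. The cluster on chromosome 19 spans 728 bases within SPACA6 and its antisense gene SPACA6-AS1, on the plus strand, with miR-99b-5p at chr19:51692618-51692639 and miR-125a-5p at chr19:51693268-51693291. The cluster on chromosome 21 spans 51.2 kb within the noncoding gene MIR99AHG, on the plus strand, with miR-99a-5p at chr21:16539101-16539122 and the other copy of miR-125b-5p at chr21:16590253-16590274. The array reads mature strands, so miR-125b-5p made from chromosomes 11 and 21 cannot be told apart. Whether each hairpin is exonic or intronic was not resolved by the annotation used here.

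Of the 5 strands, miR-100-5p and miR-125b-5p were detected on both arrays by the detection flag of the scanner software, miR-125a-5p on the oe-HOTTIP array only, and miR-99a-5p and miR-99b-5p on neither. No strand was 2-fold or more lower or higher, the threshold of the study's methods. Among the 261 miRNAs detected on both arrays, 55 (21.1%) were at least 2-fold lower on the oe-HOTTIP array and 47 (18.0%) higher by as much, or 39.1% in either direction. With lower bounds for the miRNAs detected on 1 array included, 25.2% of 457 miRNAs were lower and 33.9% were higher. The median log2 difference of miR-100-5p and miR-125b-5p was -0.38, where that of the 261 miRNAs was 0.024. Differences are given on a log2 scale as oe-HOTTIP minus oe-NC, after scaling each array by its 90th percentile over these 261 miRNAs. That percentile was 279.9 on the oe-NC array and 439 on the oe-HOTTIP array, so an equal brightness on both arrays gives a log2 difference of -0.65. Whether spots overlapped between the arrays is given below for named strands only. The share of all probes without overlap was not computed.

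In the miR-99 family, hsa-miR-100-5p had an intensity of 23.5 ± 2.49 (SD, 18 spots) on the oe-NC array and 32.4 ± 4.42 (SD, 20 spots) on the oe-HOTTIP array. Its signal was well above background in 17 and 18 of these spots. Its intensity was thus higher on the oe-HOTTIP array before scaling and slightly lower after it. The scaled log2 difference was -0.19, within the spread of 0.25 that the spots gave, with a standard error of 0.06 from spots. Before scaling it was 0.46. In the order of the 261 differences it ranked 101 from the lowest, near the middle of the array.

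The probes of miR-100-5p differed in how clearly they separated the arrays. The brighter probe read 26.6 to 35.97 with a median of 34.0 over 9 spots on the oe-NC array, and 40.3 to 56.8 with a median of 47.1 over 10 spots on the other, before scaling. Its spots did not overlap before scaling but did after it, and its scaled log2 difference was -0.11. The dimmer probe read 10.5 to 17.0 with a median of 14.5 over 9 spots and 10.7 to 22.4 with a median of 16.4 over 10 spots. Its spots overlapped, and its scaled difference was -0.39.

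hsa-miR-99a-5p, a single base away from miR-100-5p, was not well above background in any spot of either array. Its intensity was 1.60 ± 1.57 (SD, 20 spots) on the oe-NC array and 3.20 ± 1.75 (SD, 19 spots) on the oe-HOTTIP array. hsa-miR-99b-5p stood at -0.83 ± 1.997 (SD, 20 spots) and -0.23 ± 1.63 (SD, 20 spots), where a negative value is a spot dimmer than its subtracted background. These values lie at or under the negative control spots, which had 3.87 ± 2.37 (SD, 976 spots) and 3.45 ± 2.21 (SD, 975 spots), and no fold was computed for either strand. Of this seed group, miR-100-5p alone was therefore measured above background.

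In the miR-125 group, hsa-miR-125b-5p had an intensity of 12.7 ± 3.28 (SD, 20 spots) on the oe-NC array and 13.5 ± 2.26 (SD, 17 spots) on the oe-HOTTIP array. The brightness was nearly equal, so the scaling set most of its difference. The scaled log2 difference was -0.56, above the spot spread of 0.44, with a standard error of 0.10 from spots, and it was 0.09 before scaling. It ranked 75 from the lowest of 261.

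All of the miR-125b-5p signal came from a single probe. That probe read 16.7 to 29.97 with a median of 26.3 over 10 spots on the oe-NC array, and 21.5 to 31.1 with a median of 29.0 over 8 spots on the oe-HOTTIP array. These spots overlapped, and the scaled log2 difference of the probe was -0.50. The other probe had means of 0.20 and -1.06 with no spot well above background, and since the probes are averaged, it lowers the level given for the strand on both arrays.

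hsa-miR-125a-5p had an intensity of 2.62 ± 1.69 (SD, 17 spots) on the oe-NC array, where no spot was well above background. On the oe-HOTTIP array it had 6.21 ± 1.98 (SD, 20 spots), with 6 spots well above background. By the average of its probes, the scaled level on the oe-HOTTIP array was at least 1.51-fold higher, as a bound against its own signal on the other array, which is under the 2-fold threshold. The 6 spots all belong to one probe, which read 3.02 to 8.77 with a median of 6.62 over 8 spots and 8.43 to 14.9 with a median of 11.8 over 10 spots, so its spots overlapped slightly before scaling. That probe alone gave a scaled ratio of 1.20, so 1.51 is no firm lower limit and rests in part on the other probe. The other probe had means of -0.94 and 0.79. The miRNA thus passed detection through a few spots of 1 probe.

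**Figure D1:**
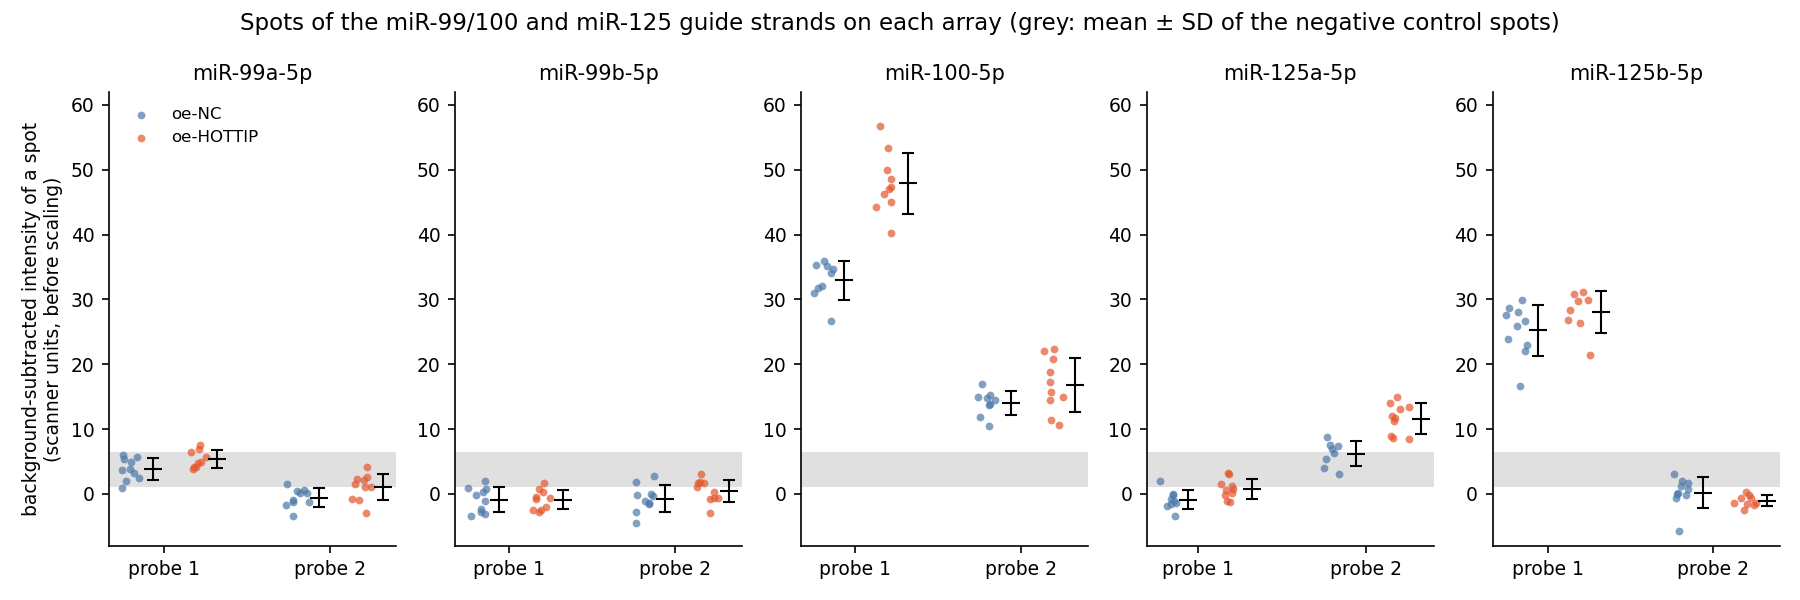
Intensity of each spot (vertical axis, background-subtracted, before scaling) for the 5 guide strands, by probe and array. Black marks give the mean ± SD over spots, and the grey band spans the mean ± SD of the negative control spots of both arrays. The spots of miR-99a-5p and miR-99b-5p lie at the level of the negative controls, those of miR-100-5p stand above it on both arrays, and 1 of the 2 probes of miR-125b-5p does.

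miR-4319, the other miRNA on the array with the seed of a member, carries CCCUGAG like the miR-125 strands. It was not detected on either array, with mean intensities of -3.24 and -2.40. The differences nearest to the median of miR-100-5p and miR-125b-5p were those of miR-29a-3p (-0.38), miR-320b (-0.37) and miR-23b-3p (-0.39), by the gap between scaled log2 differences over 2 arrays.

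The opposite strands of the hairpins, usually the discarded passenger strands, behaved differently in 1 case. Of 6 such strands, miR-125a-3p alone was detected, and it was detected on both arrays. Its intensity was 8.02 ± 3.44 (SD, 20 spots) on the oe-NC array, with 4 spots well above background, and 31.0 ± 4.07 (SD, 20 spots) on the oe-HOTTIP array, with all 20. The spots of the arrays did not overlap in any of its 3 probes, before or after scaling. The scaled log2 difference was 1.30, above the spot spread of 0.65, with a standard error of 0.14 from spots, and its probes gave 1.39, 1.33 and 1.19. It was past the 2-fold threshold and ranked 234 from the lowest of 261. The sequence is shown because it was the one strand of these hairpins past the threshold, and it lies at chr19:51693306-51693327.
miR-125a-3p: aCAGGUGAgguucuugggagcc

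Its seed differs from that of miR-125a-5p, so the strands of this hairpin have separate target rules. miR-125a-5p and miR-125a-3p were both dim on the oe-NC array and both brighter on the oe-HOTTIP array before scaling. Before scaling, the median log2 difference of the miRNAs detected on both arrays was itself 0.67. After scaling, the miR-125a-5p probe with spots above background gave a ratio of 1.20, and miR-125a-3p was 2.46-fold higher. miR-99b-5p of this cluster was detected on neither array. miR-99b-3p, from the same cluster, had -1.37 on the oe-NC array and 4.96 on the oe-HOTTIP array, without overlap in any of its 4 probes before scaling, and in 3 of them after it. No spot of it was well above background, so it counts as not detected and has no fold. Its probe means on the oe-HOTTIP array were 2.63 to 6.42, beside 3.45 ± 2.21 for the negative control spots. How often the spots of undetected miRNAs separate in this way was not computed. miR-99a-3p, miR-100-3p, miR-125b-1-3p and miR-125b-2-3p were not detected on either array.

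The let-7 guide strands of the same clusters, which silence growth genes such as RAS and HMGA2, were all detected on both arrays. They are shown because they differ from each other by 1 or 2 bases and were set against the members below.
let-7a-5p: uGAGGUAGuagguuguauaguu
let-7c-5p: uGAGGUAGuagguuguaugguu
let-7e-5p: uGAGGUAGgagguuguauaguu

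The copy of let-7a-5p on chromosome 11 is at chr11:122146568-122146589, let-7c-5p is at chr21:16539838-16539859 and let-7e-5p at chr19:51692793-51692814. let-7c-5p differs from let-7a-5p by A19G and let-7e-5p from let-7a-5p by U9G, and the share of each probe's signal that came from its neighbours was not tested. let-7a-5p is also made from genes on chromosomes 9 and 22, outside these clusters.

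let-7a-5p had an intensity of 212 ± 40.4 (SD, 20 spots) on the oe-NC array and 528 ± 70.8 (SD, 19 spots) on the oe-HOTTIP array. The spots of both its probes did not overlap between arrays before or after scaling, and its scaled log2 difference was 0.67 with a spot spread of 0.34. let-7e-5p had 15.8 ± 3.15 (SD, 20 spots) and 31.9 ± 5.18 (SD, 20 spots), with no overlap in either probe before scaling and overlap in both after it. Its scaled difference was 0.37 with a spot spread of 0.37. let-7c-5p had 59.6 ± 32.6 (SD, 19 spots) and 100.5 ± 37.4 (SD, 20 spots), and its scaled difference of 0.10 was well within its spot spread of 0.95. One of its probes had means of 3.81 and 5.60 with no spot well above background, which lowers the level and widens this relative spread. The bright probe alone gave a scaled difference of 0.11. None of these let-7 strands reached 2-fold. The other let-7 guide strands on the array lay on both sides of 0. Their scaled differences were -0.26 for let-7b-5p, -0.18 for let-7d-5p, -0.12 for let-7i-5p, 0.62 for let-7g-5p and 0.94 for let-7f-5p. Of the let-7 partner strands, let-7c-3p and let-7e-3p were not detected, and let-7a-2-3p was not analysed here.

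**Figure D2:**
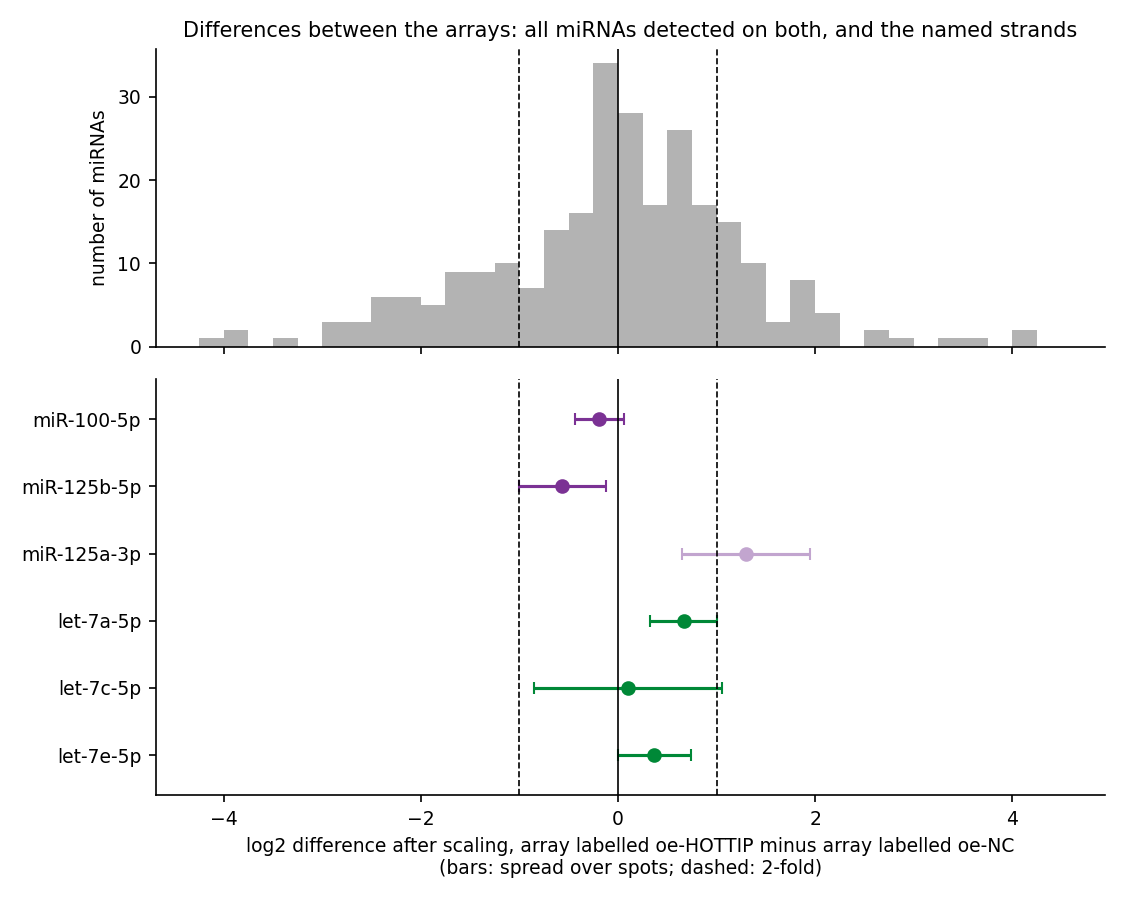
Log2 difference between the arrays (oe-HOTTIP minus oe-NC, scaled) of the strands detected on both arrays, with the spread over spots as bars, beside the distribution over all miRNAs detected on both. miR-100-5p (-0.19) and miR-125b-5p (-0.56) lie below 0, and the let-7 strands of the clusters (0.10 to 0.67) and miR-125a-3p (1.30) above it.

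Subtracting one strand's difference from another's removes the scaling. The log2 difference of miR-100-5p minus that of let-7a-5p was -0.85, above the spot spread of 0.42, with a standard error of 0.09 from spots. For miR-125b-5p minus let-7a-5p it was -1.23, above the spot spread of 0.56, with a standard error of 0.13. The difference of let-7a-5p was thus separated from those of miR-100-5p and miR-125b-5p by more than the spread of the spots, with no replicate arrays. The spread and the standard error leave out the gap between the probes of a strand. By probe, the scaled differences were -0.11 and -0.39 for miR-100-5p, and 0.96 and 0.59 for let-7a-5p. let-7a-5p and miR-125b-5p also have genes outside the chromosome 11 cluster, so these values do not measure that cluster alone.

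miR-125b-5p minus let-7c-5p gave -0.67, within the spot spread of 1.05, and miR-100-5p minus let-7c-5p gave -0.29, within the spot spread of 0.99. Against let-7e-5p, miR-100-5p gave -0.56 and miR-125b-5p -0.93, above the spot spreads of 0.45 and 0.58. For the chromosome 19 cluster, miR-125a-3p minus let-7e-5p gave 0.93, above the spot spread of 0.75. miR-125b-5p and miR-100-5p differed from each other by -0.38, within the spot spread of 0.51. Neighbours in the order of differences were therefore not always separable, although miR-125b-5p and miR-100-5p both lay below all 3 let-7 strands.

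**Figure D3:**
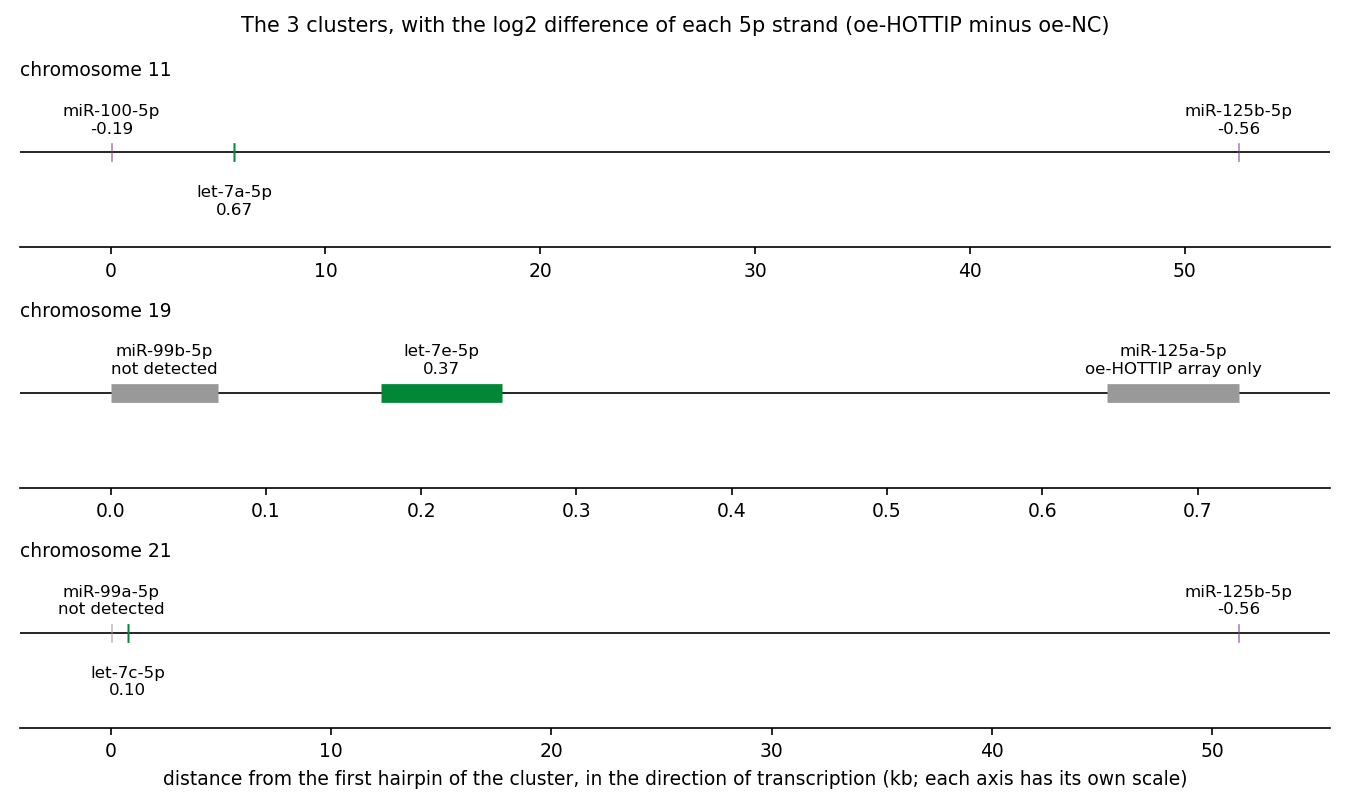
Position of the hairpins in the 3 clusters (horizontal axis, distance in kb from the first hairpin; each axis has its own scale), with the scaled log2 difference of each 5p strand; grey hairpins have none. The clusters on chromosomes 11 and 21 span 52.6 and 51.2 kb, that on chromosome 19 under 1 kb, and the same miR-125b-5p value (-0.56) is drawn at both of its genes.

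Of 16 alternatives, 15 gave a value for all of miR-100-5p, miR-125b-5p, let-7a-5p, let-7c-5p and let-7e-5p. In 6 of these all strands shift by the same amount, so their order could not change. In 7 of the other 9, both miR-100-5p and miR-125b-5p lay below each of these let-7 strands. The exceptions were the authors' table with its columns as named and the median over all spots. The authors' table with its columns exchanged, also among the 9, is the exact reverse, so a pass in one fixes a failure in the other. The sign of a single member depended more on the processing: miR-100-5p lay below 0 in 12 alternatives and above 0 in 4, with a range of -0.43 to 0.46. The 4 were no scaling (0.46), the authors' table as named (0.37), detection by over 50% of the spots (0.30) and above the negative controls on both arrays (0.15). The 2 labelling spike-ins were brighter on the oe-HOTTIP array by log2 0.80 and 0.47. Scaling by them gave -0.17 for miR-100-5p and -0.55 for miR-125b-5p.

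**Figure D4:**
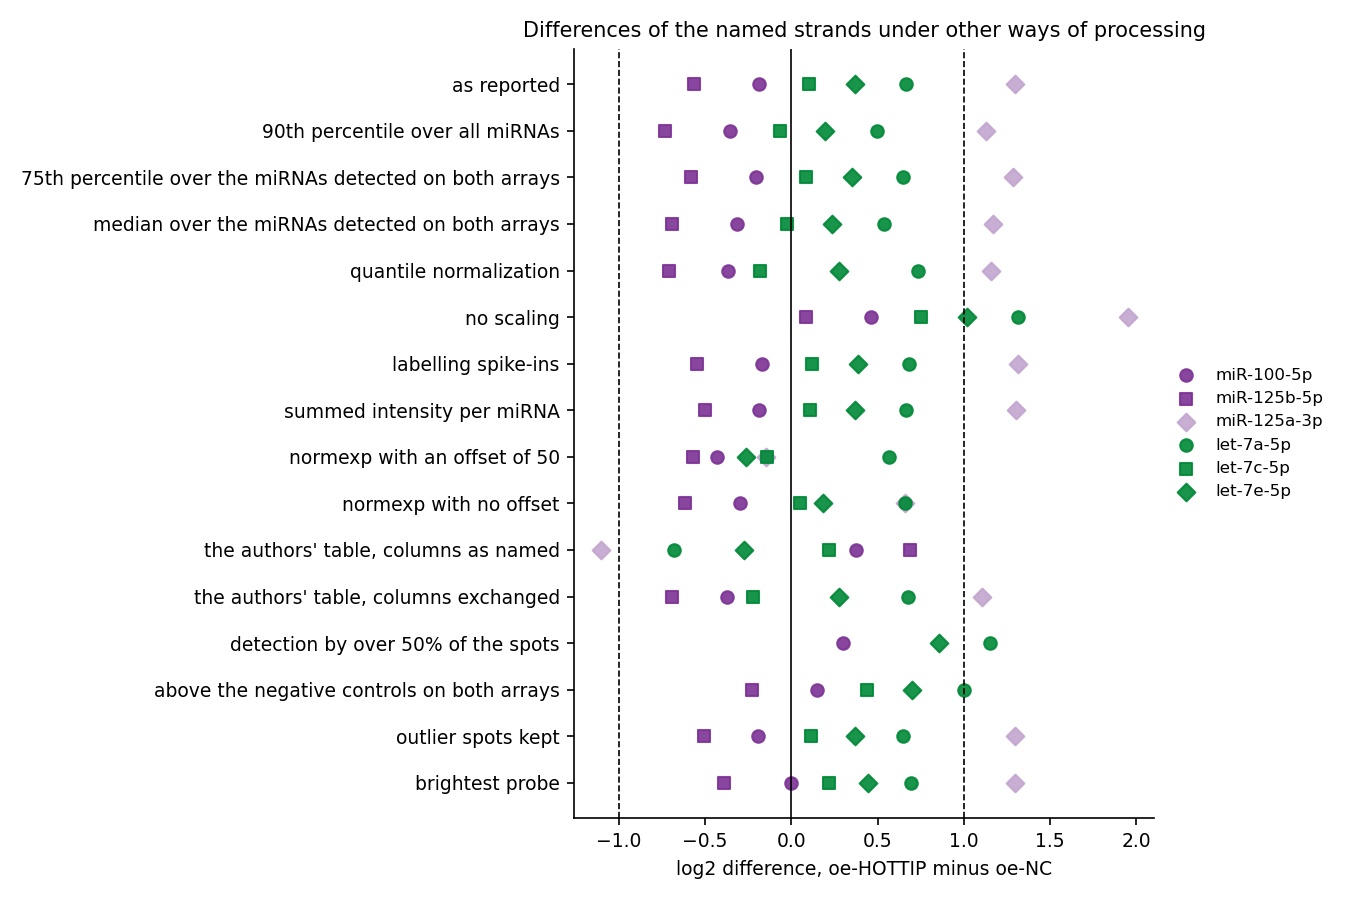
Log2 difference (oe-HOTTIP minus oe-NC) of the detected strands under each way of processing the arrays, apart from the median over all spots, which is not drawn. A change of scaling factor shifts all strands alike and keeps their order by construction. In the alternatives drawn that can change the order, miR-100-5p and miR-125b-5p lie below the let-7 strands shown, except where the columns of the authors' table are taken as named.

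Markers of other cells were read on the same arrays. Of 8 epithelial miRNAs, such as the miR-200 family and miR-205-5p, 5 were detected on both arrays, with differences of -0.65 to 0.17, miR-200a-3p was detected on the oe-HOTTIP array only, and miR-429 and miR-203a-3p on neither. Their summed intensity was 530 on the oe-NC array and 640 on the oe-HOTTIP array. Of 5 fibroblast and smooth muscle miRNAs, miR-199a-3p alone was detected, at 5.87 and 5.95, and their sum was 2.36 on each array because some members had negative values. miR-143-3p and miR-145-5p, which define these cells, were not well above background in any spot.

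Of 7 miRNAs of blood cells and serum, 6 were detected on both arrays, and miR-142-3p on neither. Their sum was 2290 on the oe-NC array and 2640 on the oe-HOTTIP array, nearly all of it the red cell miRNA miR-451a, at 2233 and 2552. The scaled log2 difference was -0.46 for miR-451a, -0.33 for miR-144-3p, 0.06 for miR-122-5p and 0.69 for miR-223-3p. The furthest from 0 were -1.75 for miR-486-5p, also of red cells, and 1.38 for miR-150-5p, of lymphocytes. Each of these was dim on 1 array. miR-486-5p had 1 of 20 spots well above background on the oe-HOTTIP array, and miR-150-5p had 4 of 19 on the oe-NC array. The part of these miRNAs' source in the members' values was not tested. An equal 200 ng of RNA was labelled for each array, so the number of vesicles was not measured. The values do not give the amount of a miRNA per vesicle.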

How the data were processed

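For each array the authors deposited its scanner output, with a background-subtracted intensity per spot, median and local background intensities, an intensity summed per miRNA, and spot flags. A further table deposited by the authors holds normalized log2 values, with undetected miRNAs at a floor. The methods name GeneSpring, a 90th percentile normalization and a 2-fold threshold. The submitters' processing notes name Agilent Feature Extraction 10.10, and the scanner file header 11.5.1.1.

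The members and lists were chosen with earlier results of these data known. Control spots and outlier spots (3.20% and 3.16%) were left out, and no spot was saturated. Spots were averaged per probe and probes per miRNA. Intensities were scaled by the 90th percentile of each array, taken over the 261 miRNAs detected on both since 328 (12.9%) and 390 (15.3%) of 2549 were detected, and log2 was then taken. A miRNA detected on 1 array was given a bound against the higher of its own signal and the lowest detected signal on the other. Spot SDs were pooled within probes, and the spread of a log2 difference is the root of the summed squared relative SDs. The miRNAs named are the members, their partner strands, co-encoded let-7 strands, miRNAs with a member's seed, the 3 nearest differences and the cell markers. The alternatives were 16 in number and concerned scaling, background, detection, probe summary and the authors' table. Calls were tested on simulated data with set changes and noise between spots, but no variation between replicate arrays. That test cannot say how reliable a call between single arrays is. The slide and the scan were the same for both arrays. Versions were limma 3.58.1 in R 4.3.3, and matplotlib 3.10.9, pandas 2.3.3 and numpy 2.4.6 in Python 3.11.15.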

Additional observations from a re-analysis of the deposited data

How the results depend on the processing

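Of 16 alternatives, 13 kept the median of the detected members below 0 and 3 turned it above 0. The median was 0.27 with no scaling, 0.53 with the columns of the authors' table as named, and 0.30 with detection by over 50% of the spots, where miR-100-5p is left alone because miR-125b-5p had 10 of 20 spots well above background on the oe-NC array and 8 of 17 on the oe-HOTTIP array. With the median over all spots it was -3.05, since the spots of the silent miR-125b-5p probe then set that strand's value (-5.97), and 1 member, miR-125b-5p, was at least 2-fold lower. With no scaling, and with the summed intensity, 1 member was at least 2-fold higher, miR-125a-5p, whose bound was 2.37 and 2.16; the bound ranged from 1.29 to 2.37. In the other alternatives no member was past the threshold. miR-125a-3p reversed to -0.14 under normexp with an offset of 50 and to -1.10 in the table as named, and miR-125b-5p relative to let-7a-5p reversed to 1.37 in that table, and it was -1.37 with the columns exchanged. The cause of the normexp value was not tested. The share of lower among all calls was 53.9%, against 22.9% with no scaling, 78.8% under normexp with an offset of 50 and 66.7% without one, 40.4% in the table as named, 28.2% with detection by over 50% of spots and 36.2% above the negative controls. Calls numbered 26 lower and 7 higher under normexp with an offset of 50, and 30 and 101 with no scaling. No paired analysis was possible because a single array stands for each group. Signals near the negative controls limit miR-125a-5p, miR-99a-5p and miR-99b-5p, and miR-125a-3p on the oe-NC array. miR-125a-3p had a value in 14 alternatives. It had none with detection by over 50% of the spots or above the negative controls on both arrays.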

Other observations

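Both strands of a hairpin were seldom detected together on these arrays. Of 810 hairpins with a 5p and a 3p strand of the same name on the array, 180 had at least 1 strand detected on the oe-NC array, against 216 on the oe-HOTTIP array, and both strands were detected for 18 and 15 of them. The hairpin of miR-125a-5p and miR-125a-3p is one of the 15, and on the oe-NC array its 3p strand alone was detected. For 7 hairpins both strands were detected on both arrays, those of miR-150, miR-151a, miR-21, miR-22, miR-31, miR-4433a and miR-4485. The strands of miR-22, for example, had scaled log2 differences of -2.06 (5p) and -0.088 (3p), and those of miR-21 0.10 (5p) and 0.40 (3p). These names were chosen after their values were seen. In the normalized table of the authors, miR-99a-5p and miR-99b-5p stand at the floor in both columns. The column named for oe-NC holds a log2 value of 2.79 for miR-100-5p and 1.53 for miR-125b-5p, and the column named for oe-HOTTIP 3.17 and 2.21.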
